A study of Mus musculus with 8 samples.

Results

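The peaks described here are the ATAC-seq peaks that the deposited annotation places in a CpG island and does not call a promoter. They were chosen by the deposited annotation alone: the detailed annotation had to begin with CpG, the annotation could not begin with promoter-TSS, and the peak had to lie on chromosomes 1 to 19. This rule found 2062 peaks of the 67822 in the series, or 3.10% of the 66516 peaks on those chromosomes. In all, 2116 peaks carried a CpG island annotation, of which 54 lay on other sequences. No promoter peak carried one, so the CpG islands at promoters cannot be told apart from other promoters in this annotation.

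CpG islands are stretches of mammalian DNA in which the dinucleotide CG, depleted elsewhere in the genome, has been kept. Many lie at gene starts, are free of DNA methylation and are bound by proteins with a CXXC zinc finger. Those inside genes or between them, often called orphan islands, can act as alternative promoters or enhancers or be covered by Polycomb complexes. ATAC-seq reads open chromatin through the places where a transposase can cut, and so shows which of them are accessible.

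Accessibility was measured in CD11b+ microglia, macrophages that reside in the brain, which were isolated on magnetic columns from mouse forebrain after removal of myelin. One group was wild type, on a C57BL/6N background, and the other was Cias1-knockout, named Nlrp3-/-, from Millennium Pharmaceuticals. The product of Nlrp3 senses damage and assembles the inflammasome that activates caspase-1. Each genotype had 4 libraries. The labels name no age, treatment or Cre driver. No strain background is given here for the knockout line. Background and loss of Nlrp3 therefore cannot be told apart in the differences between genotypes. The labels do not say whether replicates came from separate mice, so p-values measure only the spread of these libraries, part of which may be technical.

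Total tags ranged from 11325865 to 15521580 per library. The share of tags in peaks was 9.79% to 17.5% in wild-type libraries, but 6.68% and 4.96% in knockout replicates 1 and 2 and 20.9% and 26.2% in knockout replicates 3 and 4. The median CpG island peak accordingly held 16 to 22 tags in wild-type libraries, 8 or 9 in knockout replicates 1 and 2, and 22 and 32 in knockout replicates 3 and 4. Both promoter peaks of Nlrp3 fell to near 0 in the knockout: the peak at chr11:59541383-59541657 held 33.0 to 40.8 CPM in wild-type libraries and 0 to 0.323 CPM in knockout libraries (edgeR adjusted p = 3.8e-11). Promoter peaks were present at 10 of 10 microglial marker genes, at 26.1 to 34.9 CPM per gene. They were present at 0 of 7 granulocyte and lymphocyte markers, 1 of 8 neuronal, 2 of 6 astrocyte, 2 of 7 oligodendrocyte, 2 of 7 border macrophage and 3 of 6 endothelial and mural markers. The summed level of the endothelial and mural markers was 5.80 to 7.02 CPM per gene in wild-type and 5.03 to 7.87 in knockout libraries. CPM, the usual scaled count, divide each count by the total its library has in tested peaks, adjusted with edgeR's TMM factors.

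The label of this class, peaks away from promoters, did not hold for most of it. Of the 2062 peaks, 1131 (54.8%) lay within 1 kb of the start of the gene they are assigned to, all of them downstream of it, and 1075 of these were in a first intron. Another 424 peaks (20.6%) lay 1 to 5 kb from a start, and 507 (24.6%) lay beyond 5 kb. The absolute distance ran from 102 bp to 359800 bp with a median of 813.5 bp, and 27 peaks lay beyond 100 kb. By annotation, 1291 (62.6%) were in a first intron, 191 (9.26%) in a later intron and 580 (28.1%) between genes. They are therefore called here CpG island peaks outside annotated promoters. The group within 1 kb borders on the promoter class itself, since 95.3% of promoter peaks lay in the window from 1 kb before to 100 bp after a start.

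**Figure D1:**
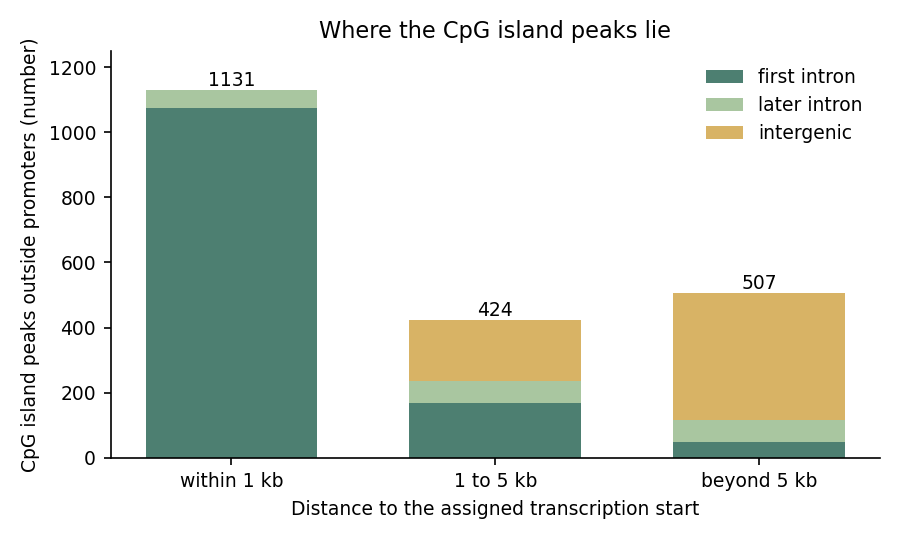
Number of CpG island peaks outside promoters (vertical axis) by distance to the assigned transcription start (horizontal axis), stacked by annotation. The 1131 peaks within 1 kb are nearly all in first introns, and 391 of the 507 beyond 5 kb are intergenic.

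Some of these peaks hold a gene start that the deposited annotation did not assign to them. RefSeq starts (GRCm38.p6, the RefSeq release of the mm10 build) fell inside 167 of the 1997 peaks on chromosomes that the RefSeq promoter table covers, or 8.36%. The share was 7.27% within 1 kb of the assigned start, 6.11% from 1 to 5 kb and 12.7% (62 of 488) beyond 5 kb. Among other peaks beyond 5 kb, it was 0.851% (325 of 38191). RefSeq windows, taken from 250 bases before to 50 bases after a start, had a median GC content of 64.7% and a median of 23 CG dinucleotides where the start lay in a CpG island peak (186 windows). Windows with a start in a promoter peak (8537) had 62% and 22, and all 31396 windows had 53% and 7. The observed over expected frequency of CG was 0.804, 0.799 and 0.389 in these sets. These starts were thus close to those in promoter peaks in base composition, which is also what a CpG island annotation selects.

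The stretches below are shown because they are the parts of CpG island peaks that lie just upstream of a RefSeq start. They come from RefSeq, read 5′ to 3′ along the gene, with each CG in capitals. The Sall1 stretch (chr8:89042863-89043112, minus strand, 250 bases with 30 CG) is at an internal start of the gene of a transcription factor that maintains microglial identity. The Zfp335os stretch (chr2:164911183-164911432, plus strand, 24 CG) is at an antisense start in the first intron of Zfp335, a zinc finger gene. The Fbrs stretch (chr7:127478708-127478957, plus strand, 14 CG) lies in the peak with the highest level of those that hold such a stretch of at least 150 bases, and in sequence it had the fewest CG of the stretches of 250 bases shown. The Zfp775 (chr6:48601784-48602006, plus strand, 17 CG) and Pik3ca (chr3:32396815-32397064, plus strand, 19 CG) stretches lie in peaks that the deposited table assigns to neighbouring genes, 8037 bp downstream of the start of Repin1 and 31325 bp upstream of that of Zmat3. The Gm40371 stretch (chr6:47651321-47651358, minus strand, 38 bases with 3 CG) is the part upstream of a predicted gene's start in a peak that differed between the genotypes, described further on.
Sall1: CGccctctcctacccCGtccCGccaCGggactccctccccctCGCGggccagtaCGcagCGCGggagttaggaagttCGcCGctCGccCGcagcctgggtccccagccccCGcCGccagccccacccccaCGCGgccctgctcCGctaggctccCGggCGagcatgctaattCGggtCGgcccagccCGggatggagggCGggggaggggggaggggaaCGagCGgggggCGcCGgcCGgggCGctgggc
Zfp335os, in the peak assigned to Zfp335: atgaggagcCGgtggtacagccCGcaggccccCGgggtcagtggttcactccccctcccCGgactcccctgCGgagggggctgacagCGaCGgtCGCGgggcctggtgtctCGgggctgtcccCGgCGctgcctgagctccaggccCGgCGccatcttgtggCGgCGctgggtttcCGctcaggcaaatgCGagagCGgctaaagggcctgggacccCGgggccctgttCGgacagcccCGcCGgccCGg
Fbrs: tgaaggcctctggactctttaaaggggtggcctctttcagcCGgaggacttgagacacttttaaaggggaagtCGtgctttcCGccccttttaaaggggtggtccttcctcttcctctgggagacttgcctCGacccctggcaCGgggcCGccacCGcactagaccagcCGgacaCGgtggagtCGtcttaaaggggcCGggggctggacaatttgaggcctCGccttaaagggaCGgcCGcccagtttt
Zfp775, in the peak assigned to Repin1: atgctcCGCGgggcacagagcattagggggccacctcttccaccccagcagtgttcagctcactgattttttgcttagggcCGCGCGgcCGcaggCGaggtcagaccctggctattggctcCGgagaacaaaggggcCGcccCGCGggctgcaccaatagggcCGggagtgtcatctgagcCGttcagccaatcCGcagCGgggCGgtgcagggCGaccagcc
Pik3ca, in the peak assigned to Zmat3: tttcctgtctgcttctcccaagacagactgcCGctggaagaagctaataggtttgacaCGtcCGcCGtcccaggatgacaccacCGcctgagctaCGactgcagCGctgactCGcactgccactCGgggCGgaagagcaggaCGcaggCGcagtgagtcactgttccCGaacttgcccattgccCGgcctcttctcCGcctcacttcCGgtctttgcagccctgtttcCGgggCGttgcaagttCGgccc
Gm40371, in the peak assigned to Rn4.5s: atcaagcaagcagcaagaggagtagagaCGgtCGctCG

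Searched on both strands, the SP/KLF box GGGCGG was in 67.7% of the 186 windows with a start in a CpG island peak, in 68.2% of windows with a start in a promoter peak and in 36.0% of all windows. The CTCF core CCCTC was in 70.4%, 75.2% and 66.3%, and the ETS core GAGGAAG, which PU.1 of myeloid cells recognises, in 9.14%, 13.6% and 13.4%. The NRF1 core was in 1.61%, 2.62% and 0.968%. GGGCGG itself holds a CG, so its share moves with CG content, whereas the other cores spelled out here hold none. These matches describe letters in the windows and show no binding.

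The peaks had a median width of 287 bp (201 to 1132 bp), against 279 bp for promoter peaks and 264 bp for other peaks. They were assigned to 1749 genes, of which 1514 had 1 such peak and 235 had more, and 344 peaks had another within 2 kb. Neighbouring peaks can therefore share an island and are not independent. Most genes of these peaks (1940 peaks, 94.1%) were protein-coding. A promoter peak of the same gene was listed for 1541 of the peaks (74.7%), for 86.2% of those within 1 kb, 70.8% of those at 1 to 5 kb and 52.5% of those beyond 5 kb. The merged list took 1474 (71.5%) of the CpG island peaks from the reproducible peaks of both genotypes, 440 (21.3%) from that of wild type alone and 148 (7.18%) from that of the knockout alone. For promoter peaks these shares were 86.2%, 9.83% and 3.92%, and for other peaks 73.1%, 17.7% and 9.26%. The lists were called from libraries that differed in the share of tags in peaks, and the part of that difference in these counts was not tested.

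How accessible these islands are was compared with promoters and with the remaining autosomal peaks within each library, as the ratio of median tags per kb. CpG island peaks lay below promoter peaks in 8 of 8 libraries. The median CpG island peak held 61.9, 48.3, 63.4 and 69.1 tags per kb in wild-type replicates 1 to 4 and 29.3, 23.9, 68.0 and 99.2 in knockout replicates 1 to 4. The median promoter peak held 101, 79.5, 111 and 127 in the wild-type and 44.0, 34.5, 119 and 182 in the knockout libraries. The mean log2 ratio was -0.74 ± 0.13 (SD, n = 8), a level of 0.598 times that of promoters (exact sign-flip permutation test over libraries, two-sided, p = 0.00781, the smallest that 8 libraries allow; adjusted over 5 such comparisons, 0.0130). The ratio was -0.78 ± 0.081 in wild-type and -0.70 ± 0.17 in knockout libraries, a difference of 0.077 (exact permutation p = 0.429, n = 4 per genotype).

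Against all other autosomal peaks the level did not differ beyond the spread between libraries, with a mean log2 ratio of 0.0070 ± 0.096 (SD, n = 8; below 0 in 3 libraries; exact p = 0.859). Counted as tags per peak, with no correction for width, CpG island peaks were above the others by 0.21 (exact p = 0.00781). This pooled figure covered unlike positions. Within 1 kb of a start, CpG island peaks were slightly below the 3097 other peaks of that band, at -0.067 ± 0.056 (lower in 7 of 8 libraries; exact p = 0.0234, adjusted 0.0293). At 1 to 5 kb they were above the 9032 other peaks by 0.20 ± 0.10 (1.15-fold, 8 of 8 libraries; exact p = 0.00781, adjusted 0.0130). Beyond 5 kb they were above the 39458 other peaks by 0.37 ± 0.12 (1.30-fold, 0.25 to 0.59 over the 8 libraries; exact p = 0.00781, adjusted 0.0130). In each of the 3 bands the genotypes differed in this ratio by no more than the spread (p = 0.343, 0.2 and 0.343 in exact permutation tests, n = 4 per genotype).

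**Figure D2:**
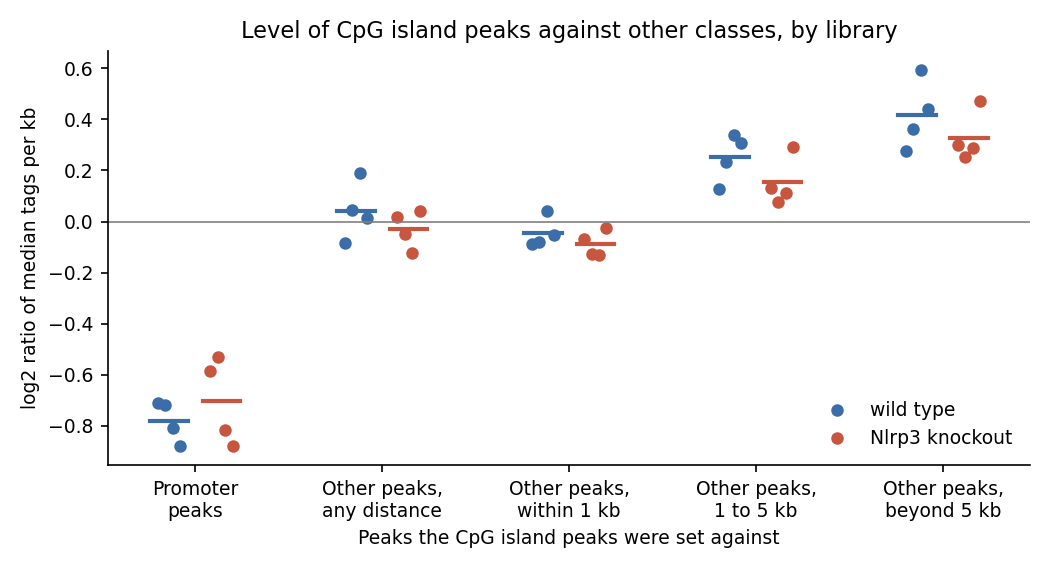
Log2 ratio of median tags per kb of CpG island peaks over the class named on the horizontal axis (the last 3 compare peaks of the same distance band), for each of the 4 wild-type and 4 knockout libraries as points, with lines at the means. All 8 libraries lie below 0 against promoters and above 0 against other peaks at 1 to 5 kb and beyond 5 kb.

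CpG island peaks far from a start were also more accessible than those close to one. The median level beyond 5 kb was 1.48 times that within 1 kb (log2 0.57 ± 0.077, SD, n = 8; higher in 8 of 8 libraries; exact sign-flip p = 0.00781). Among tested peaks, the median level over all libraries was 31.5 CPM per kb within 1 kb, 42.5 at 1 to 5 kb and 48.6 beyond 5 kb, against 59.4 for promoter peaks and 37.0 for other peaks. The middle 50% of CpG island peaks ran from 25.1 to 63.1 CPM per kb. The strongest 10% of them (206 peaks) held 31.7% of their tags, and the strongest 1% (21 peaks) held 5.69%. In 33 peaks (1.60%) at least 1 library had no tag.

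The highest level among them was in the first intron of Sfi1, whose product binds centrins at the centrosome, at 499 CPM per kb (chr11:3192951-3193265, 355 bp from the start). The mouse genome carries partial copies of Sfi1, so tags there may be split between copies, and its values are uncertain. The next intronic peak lay 876 bp into Kat6b, a histone acetyltransferase gene, at 398 CPM per kb (chr14:21500488-21500835). It held 123 to 141 CPM in wild-type and 134 to 151 CPM in knockout libraries, and the groups overlapped. Between genes, the highest levels were 440 CPM per kb at a peak 9936 bp upstream of Mir23a (chr8:84198443-84198722), which opens the miR-23a, miR-27a and miR-24 cluster, and 327 at a peak 21835 bp from Cmtm6 (chr9:114752905-114753172), whose product stabilises PD-L1. The Cmtm6 peak held 76.8 to 96.9 CPM in wild-type and 82.0 to 100.4 CPM in knockout libraries, again with overlap. A high level at these islands was thus seen in both genotypes.

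Whether the genotypes differed in the accessibility of these islands as a class was asked first of their tags in sum. They took 2.91%, 3.14%, 3.35% and 3.14% of the autosomal tags in peaks in wild-type replicates 1 to 4, and 3.11%, 3.06%, 2.88% and 3.12% in knockout replicates 1 to 4. The genotypes overlapped, with means of 3.14% ± 0.18 and 3.04% ± 0.11 (SD, n = 4 each), and the difference of -0.099 points was within the spread (exact permutation test, two-sided, p = 0.314; the smallest possible is 0.0286). It moved with single libraries, to -0.027 without wild-type replicate 3, -0.045 without knockout replicate 3 and -0.17 without wild-type replicate 1, where the exact permutation p was 0.0571, the smallest that 3 against 4 libraries allow. For every 100 tags in promoter peaks they held 10.4 ± 0.306 tags in wild-type and 10.7 ± 0.575 in knockout libraries, a difference of 0.326 (exact permutation p = 0.343, n = 4 each). With 1 library left out, this difference ran from 0.129 (without knockout replicate 2) to 0.497 (without knockout replicate 4). Without knockout replicates 1 and 2, the libraries with the lowest share of tags in peaks, it was -0.167. Within each distance band the genotypes' shares were likewise closer than the spread (exact permutation p = 0.457 within 1 kb, 0.371 at 1 to 5 kb and 0.286 beyond 5 kb, n = 4 each). Across the 8 libraries the share had no detectable relation to the share of all tags in peaks (Pearson r = -0.28, permutation p = 0.504; Spearman rho = -0.21, permutation p = 0.619). Leaving out the libraries farthest from the median, knockout replicates 4 and 2, gave r = -0.61 (permutation p = 0.181, n = 6). In these bulk samples, fewer accessible cells and less accessibility per cell cannot be told apart.

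Peak by peak, 1798 of the 2062 CpG island peaks passed the filter on low counts and were tested with edgeR's quasi-likelihood test over all 58135 tested peaks, while 264 had too few tags. At a Benjamini-Hochberg adjusted p under 0.05, 1 rose and 1 fell, or 0.111% of those tested, against 0.17% of all tested peaks (99). At an unadjusted p under 0.05, 53 (2.95%) were counted against 4.83% of all tested peaks, with 17 higher in knockout libraries (0.945%, all peaks 2.61%) and 36 lower (2%, all peaks 2.22%). The genotypes did not overlap at 13 peaks that were higher in knockout (0.723%, all peaks 1.68%) and at 30 that were lower (1.67%, all peaks 1.49%). The shares of CpG island peaks were at or below those of all peaks, apart from the last. Some of these peaks were listed through 1 genotype alone, more of them through wild type. The part of this in the counts by direction was not tested.

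The fold changes of CpG island peaks centred slightly below those of all peaks. A second measure, given below, did not go the same way. Their median log2 fold change, knockout over wild type, was -0.05, with 1055 of 1798 (58.7%) below 0, while it was 0.0037 over all tested peaks, -0.065 over promoter peaks and 0.029 over other peaks. Before the filter, 21.3% of CpG island peaks were listed from wild type alone and 7.18% from the knockout alone. For promoter peaks the shares were 9.83% and 3.92%, and for other peaks 17.7% and 9.26%. The part of this listing in the median of CpG island peaks was not tested. Scaling to all tags in place of TMM turned the sign of this median, to 0.044, and moved that of all peaks to 0.099, so that the difference between them stayed at -0.055. The median was -0.047 within 1 kb, -0.048 at 1 to 5 kb and -0.066 beyond 5 kb. It was -0.045 in first introns, -0.051 in later introns and -0.064 between genes. This difference depended on single libraries: it was -0.021 without knockout replicate 3 and -0.023 without wild-type replicate 3, and -0.088 without wild-type replicate 1. Within each library, the median log2 CPM of CpG island peaks was also set against that of all peaks. This gap was -0.059, 0.079, 0.126 and 0.054 in wild-type replicates 1 to 4 (SD 0.079). It was 0.132, 0.163, -0.052 and 0.075 in knockout replicates 1 to 4 (SD 0.095). The genotypes thus overlapped, with the lowest gap in a wild-type and the highest in a knockout library. The difference of -0.055, which comes from fold changes and is a different measure, was smaller than either SD. By the gap, knockout libraries were on average higher than wild-type libraries, the opposite direction. No loss across the class is therefore shown. The median standard error of a single peak's log2 fold change was 0.26. Peaks in introns and between genes, near and far, thus sat at like values.

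**Figure D3:**
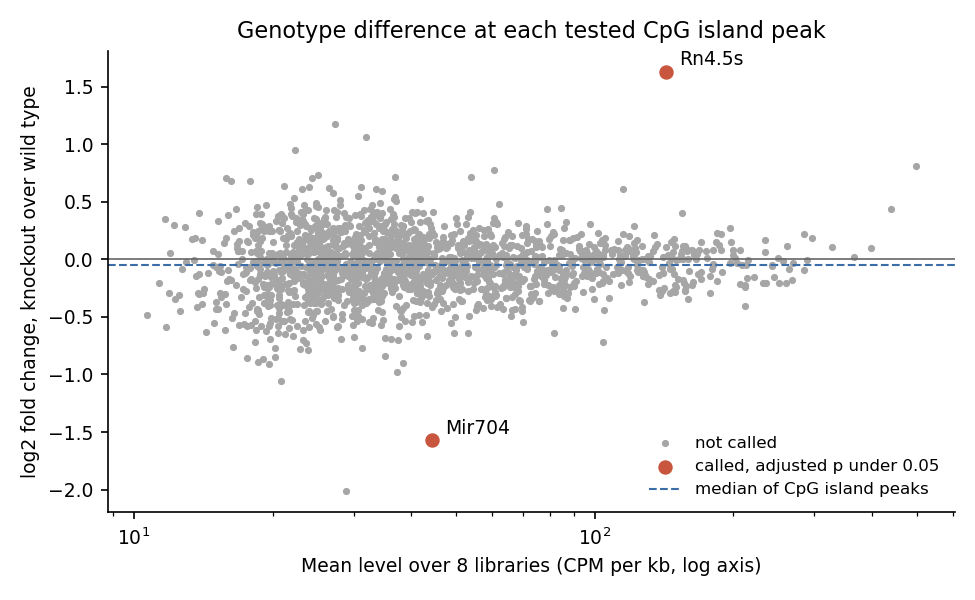
Log2 fold change, knockout over wild type, of each of the 1798 tested CpG island peaks (vertical axis) against its mean level in CPM per kb (horizontal log axis). The called peaks, assigned to Rn4.5s and Mir704, stand apart from the rest at 1.63 and -1.57, and the dashed line marks the median of -0.05.

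Both peaks that passed lie on chromosome 6, 127.2 kb apart, and moved in opposite directions. The peak that fell is intergenic and assigned to Mir704, a microRNA gene whose start is 25138 bp away (chr6:47778289-47778740). It held 31.8, 34.4, 37.6 and 18.2 CPM in wild-type replicates 1 to 4 and 9.65, 7.38, 11.4 and 10.0 CPM in knockout replicates 1 to 4. All knockout libraries lay below all wild-type libraries, and wild-type replicate 4 lay nearest to them. The log2 fold change was -1.57 (SE 0.24; edgeR adjusted p = 0.0013).

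The peak that rose is assigned to Rn4.5s, a gene of the small 4.5S RNA of rodents, whose start is 3871 bp away (chr6:47651089-47651358). It held 11.4, 9.84, 14.2 and 38.2 CPM in wild-type replicates 1 to 4 and 66.4, 48.7, 61.9 and 58.6 CPM in knockout replicates 1 to 4. Every knockout library lay above every wild-type library, and wild-type replicate 4 again lay nearest to the knockout libraries. The log2 fold change was 1.63 (SE 0.26; edgeR adjusted p = 0.0018), but DESeq2 did not call it (adjusted p = 0.163). 4.5S RNA genes are present in many near-identical copies, so tags may be split between copies and the values are uncertain. This peak holds the start of the predicted gene Gm40371, whose upstream stretch is printed above. Neither peak passed under scaling to all tags (edgeR adjusted p = 1.0 for both), although the fold changes stayed at 1.75 and -1.45.

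The neighbouring CpG island peaks on chromosome 6 did not pass the test. A peak in the first intron of Ezh2, the Polycomb methyltransferase (chr6:47594154-47594522), held 7.97 to 15.4 CPM in wild-type and 7.24 to 12.6 CPM in knockout libraries (log2 -0.14, SE 0.26). A peak assigned to the zinc finger gene Zfp212 (chr6:47920784-47920988) held 7.45 to 11.95 and 2.20 to 7.44 CPM (log2 -0.84, SE 0.35; edgeR adjusted p = 0.950). The Repin1 peak that holds the Zfp775 stretch held 41.9 to 55.2 and 39.9 to 57.9 CPM (log2 0.07, SE 0.15). Further along, an intergenic peak 91281 bp from Mir148a (chr6:51178507-51178751) held 6.46, 10.5, 15.4 and 10.2 CPM in wild-type and 8.45, 2.95, 0 and 2.59 CPM in knockout libraries. Knockout replicate 1 lay within the wild-type range and the other 3 below it (log2 -2.02, SE 0.50; edgeR adjusted p = 0.155). Without knockout replicate 1 this peak passed (log2 -2.63, adjusted p = 0.0197). It held 7, 2, 0 and 8 tags in knockout replicates 1 to 4. The peak was listed from wild type alone, the group where it is high. Its fold change and p-values are therefore not independent of how it was listed.

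**Figure D4:**
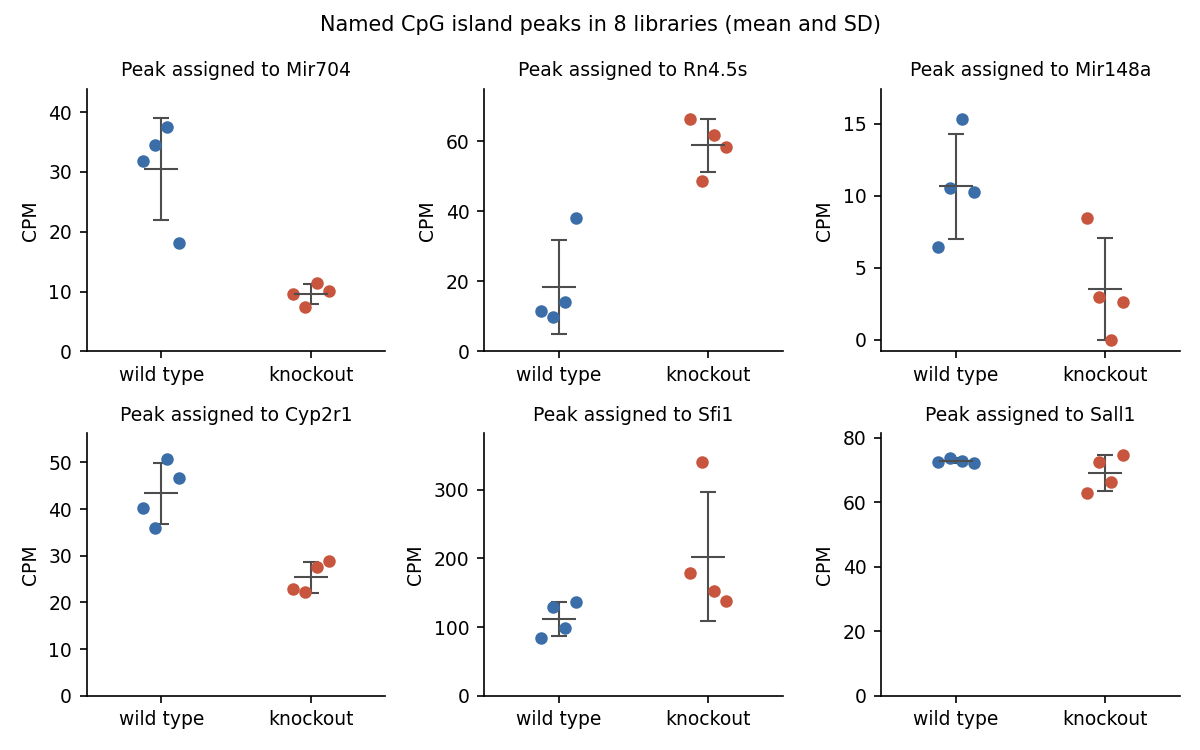
CPM in each of 8 libraries (points) for 6 CpG island peaks, with the mean and SD of each genotype (n = 4). Knockout libraries lie apart from wild-type libraries at the Mir704, Rn4.5s and Cyp2r1 peaks, barely apart at Sfi1, and overlap them at Mir148a and Sall1.

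Among the peaks with the next smallest p-values that were lower in knockout libraries, that of Cyp2r1, a vitamin D 25-hydroxylase gene, came closest to the threshold. It lies 338 bp into the first intron (chr7:114562470-114562799) and held 40.3, 35.8, 50.7 and 46.6 CPM in wild-type and 22.9, 22.1, 27.7 and 28.8 CPM in knockout libraries. The groups did not overlap, but the test was not passed (log2 -0.72, SE 0.17; edgeR adjusted p = 0.122). At the promoter peak of the same gene the means were 31.8 ± 3.35 and 22.2 ± 7.08 CPM (SD, n = 4; log2 -0.42, SE 0.19), which did not pass either. The other peaks with small p-values in this direction had adjusted p-values from 0.683 to 0.880 by edgeR. They were assigned to Rai1, a chromatin regulator gene (log2 -0.90, SE 0.30), to Ubxn2a, a cofactor gene of the p97 ATPase (-0.97, SE 0.33), to Mrps28 of the mitochondrial ribosome (-0.64, SE 0.23), and to 8030423F21Rik (-1.05, SE 0.37) and 5730507C01Rik (-0.70, SE 0.27). Promoter peaks of Rai1, Ubxn2a and Mrps28 had log2 fold changes of 0.01, -0.12 and -0.23. The Ubxn2a and 8030423F21Rik peaks were listed from wild type alone, the group where they are high. Their fold changes are therefore not independent of how they were listed.

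In the other direction, the Sfi1 peak came closest. It held 83.5, 129, 98.5 and 136 CPM in wild-type and 179, 341, 152 and 138 CPM in knockout libraries. Knockout replicate 2 was far above the rest, and knockout replicate 4 was barely above the highest wild-type library. The test was not passed (log2 0.81, SE 0.19; edgeR adjusted p = 0.123), and it was passed without knockout replicate 4 (log2 0.96, adjusted p = 0.0056) and with scaling factors computed over the CpG island peaks alone (adjusted p = 0.0485). Without knockout replicate 2 the log2 fold change was 0.47 (edgeR adjusted p = 0.405), and without knockout replicates 1 and 2 it was 0.38 (adjusted p = 0.438). Promoter peaks of Sfi1 had log2 fold changes of 0.58 (SE 0.21) and 0.11 (SE 0.37), and neither passed. The Mir23a peak held 90.5 to 117 CPM in wild-type and 118 to 182 CPM in knockout libraries, with no overlap (log2 0.44, SE 0.13; edgeR adjusted p = 0.467). At a promoter peak of Mir23a, 67 bp from the start, the means were 9.33 ± 2.93 and 22.9 ± 6.19 CPM (log2 1.13, SE 0.26; edgeR adjusted p = 0.101). At another, stronger promoter peak of Mir23a they were 42.7 ± 4.46 and 61.3 ± 11.5 CPM (log2 0.52, SE 0.15; edgeR adjusted p = 0.450).

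The remaining peaks named for a small p in this direction had adjusted p-values from 0.520 to 0.806 by edgeR. A peak 22493 bp into Anp32a, a histone chaperone gene, held 20.4 to 30.8 CPM in wild-type and 28.0 to 43.0 CPM in knockout libraries (log2 0.61, SE 0.18). Peaks in first introns of Tspan5, a tetraspanin gene, of Tmem168, of Zfp335 and of the palmitoyltransferase gene Zdhhc5 had log2 fold changes of 1.17 (SE 0.36), 0.78 (SE 0.26), 0.71 (SE 0.25) and 0.72 (SE 0.25). The Tspan5 peak held 2.85 to 4.22 CPM in wild-type and 6.47 to 13.3 CPM in knockout libraries, so its fold change rests on few tags. At promoter peaks of these 5 genes the log2 fold changes lay between -0.35 and 0.0040. The Zfp335 peak, which holds the Zfp335os start, held 9.94 to 14.4 CPM in wild-type and 14.1 to 31.4 CPM in knockout libraries, with overlap at knockout replicate 3. The Tspan5 and Zdhhc5 peaks were listed from the knockout alone, the group where they are high. Their fold changes are therefore not independent of how they were listed.

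The 5 sets of genes with known ties to CpG islands or to microglia were read next, and none of their CpG island peaks passed the edgeR test in either direction. At an unadjusted p under 0.05 there was 1 of 12 peaks of genes for CpG island binding and DNA methylation, 1 of 15 of Polycomb genes, 0 of 5 of imprinted genes, 2 of 32 of developmental transcription factors and 0 of 5 of microglial identity genes. The share was 2.95% over all tested CpG island peaks and 4.83% over all tested peaks. Median log2 fold changes of the 5 sets were -0.04, -0.12, -0.22, -0.14 and 0.13, beside -0.05 for all CpG island peaks and 0.0037 for all tested peaks. Their signs are relative to TMM scaling, since scaling to all tags moved the median of all peaks to 0.099 as given above.

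Among proteins that read or change CpG island methylation, Bend3, a repressor that binds CpG islands, had the highest level, at 89.5 CPM per kb (chr10:43479802-43480177, 849 bp from the start). It held 31.3 to 41.9 CPM in wild-type and 19.3 to 42.8 CPM in knockout libraries (log2 -0.23, SE 0.19). Cxxc5, a CXXC zinc finger gene, had the most CpG island peaks of any gene, 7, from 540 to 35275 bp from its start and from 18.3 to 57.6 CPM per kb. One of them, 34491 bp away, held 11.9 to 12.6 CPM in wild-type and 15.8 to 22.1 CPM in knockout libraries with no overlap, without passing the test (log2 0.58, SE 0.22; edgeR adjusted p = 0.880). The other 6 had log2 fold changes from -0.21 to 0.16. Peaks of Mbd3, a methyl-CpG binding family gene, of the insulator gene Ctcf and of the demethylase gene Kdm2b had values of -0.06 (SE 0.22), -0.05 (SE 0.20) and 0.0015 (SE 0.28).

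Polycomb genes had 16 such peaks, of which 15 were tested. The highest level was in the first intron of Bmi1, a subunit of Polycomb repressive complex 1, at 104 CPM per kb (chr2:18680972-18681219), with 23.8 to 33.0 CPM in wild-type and 19.2 to 31.4 CPM in knockout libraries (log2 -0.19, SE 0.19). The widest departures in the set were at Jarid2, a cofactor of Polycomb repressive complex 2 (-0.55, SE 0.25), and at Rybp (0.71, SE 0.40). A second Jarid2 peak, 2723 bp from the start, was at -0.05 (SE 0.25). Means at Pcgf5, a RING partner subunit, were 29.3 ± 3.88 and 24.6 ± 5.34 CPM (SD, n = 4; log2 -0.22, SE 0.19). The set thus held values on both sides of 0, with 11 of 15 below it. Of all tested CpG island peaks 58.7% were below 0, and of all tested peaks 49.5%.

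Imprinted genes are expressed from 1 parental allele and are governed by methylated CpG islands. Their tested peaks were those of Gnas (log2 0.31, SE 0.21), Cdh15 (-0.38, SE 0.28), Ascl2 (-0.25, SE 0.28), Peg10 (-0.06, SE 0.38) and Kcnq1 (-0.22, SE 0.52). The Gnas peak, 780 bp from the assigned start (chr2:174330698-174331040), had the highest level at 52.7 CPM per kb, with 14.9 to 18.97 CPM in wild-type and 16.9 to 24.6 CPM in knockout libraries.

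Developmental transcription factors, whose islands Polycomb complexes often cover in differentiated cells, had 40 such peaks. The highest level was 8682 bp upstream of the forkhead gene Foxj2 (chr6:122811382-122811623) at 104 CPM per kb, with 22.9 to 28.1 CPM in wild-type and 19.2 to 29.0 CPM in knockout libraries (log2 0.02, SE 0.18). The smallest p-values were at peaks assigned to Dlx2, a homeobox gene of forebrain interneurons, and to Foxn2. Neither passed. Means at the Dlx2 peak were 14.2 ± 4.55 and 8.74 ± 1.86 CPM (SD, n = 4; log2 -0.69, SE 0.28; edgeR adjusted p = 0.942). This peak is annotated to a later intron and lies more than 5 kb upstream of the Dlx2 start. The Foxn2 peak was at log2 -0.78 (SE 0.37). Intergenic peaks assigned to genes of other lineages were also accessible. Examples are Gata4, beyond 5 kb from the start (10.1 ± 0.354 and 10.2 ± 4.32 CPM), and Hoxa7, at 1 to 5 kb (7.197 ± 2.22 and 7.14 ± 1.01 CPM). Simc1 met the naming rule of this set without being such a factor.

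**Figure D5:**
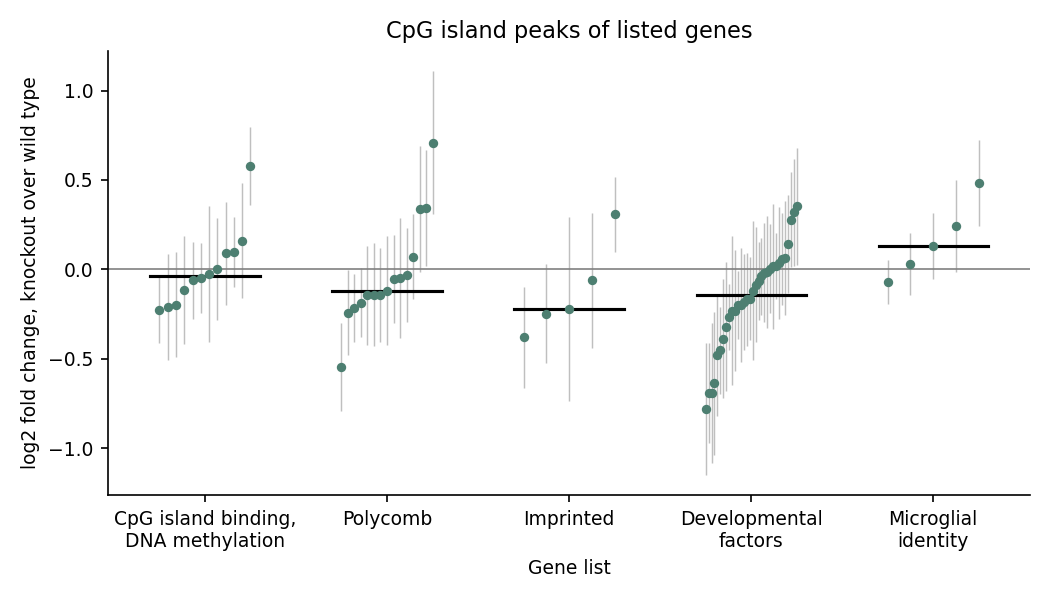
Log2 fold change, knockout over wild type, of each tested CpG island peak of the 5 gene sets (points, ordered by value, with the standard error as bars), with lines at the medians. The medians run from -0.22 for 5 peaks of imprinted genes to 0.13 for 5 peaks of microglial identity genes, and no peak passed the test.

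Of 32 microglial identity genes, 3 had CpG island peaks of this kind. Sall1 had 3 of them. The one that holds the printed stretch (chr8:89042697-89043204, 1212 bp from the start) was the most accessible, at 140 CPM per kb, and held 72.6, 73.8, 72.8 and 72.2 CPM in wild-type and 62.7, 72.3, 66.3 and 74.7 CPM in knockout libraries. The wild-type libraries differed little, and the knockout libraries lay on both sides of them (log2 -0.07, SE 0.13; 0.04 with scaling to all tags). At the promoter peak annotated to Sall1 the means were 10.5 ± 2.27 and 12.3 ± 3.30 CPM. The second Sall1 peak, 413 bp from the start, was at 132 CPM per kb (log2 0.03, SE 0.17), and the third, 3019 bp away, at 21.9 (log2 0.48, SE 0.24). Runx1, a myeloid transcription factor gene, had a later-intron peak at 58.1 CPM per kb (log2 0.13, SE 0.18). Sall3 had an intergenic peak at 39.7 CPM per kb (chr18:80987763-80988050; log2 0.24, SE 0.26).

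After Cxxc5, the genes with the most CpG island peaks had 5 each. They were Kdm6b, a demethylase gene for the Polycomb mark, the chromatin remodeller gene Chd7, the Notch target gene Hes1, the Hedgehog receptor gene Ptch1, and Anp32a. The peaks of Chd7 spanned from 43220 bp upstream of its start to 160115 bp downstream, and their levels ran from 13.5 to 148 CPM per kb. Those of Kdm6b ran from 36.0 to 116 CPM per kb and those of Hes1 from 21.7 to 59.2. Log2 fold changes ran from -0.53 to -0.0029 at Chd7, from -0.22 to 0.09 at Kdm6b, from -0.79 to 0.31 at Hes1 and from -0.48 to 0.21 at Ptch1, and none passed the edgeR test. Peaks of 1 gene thus differed among themselves in level and had log2 fold changes on both sides of 0 at Kdm6b, Hes1, Ptch1 and Anp32a.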

How the data were processed

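Tags were counted in 8 ATAC-seq libraries of microglia, 4 wild type and 4 Nlrp3 knockout. Tools named in the submitters' processing notes, with no versions, are HOMER, Bowtie2 and DESeq2, and the build is mm10. Reproducible (IDR) peak lists of both genotypes were merged by the authors, per the file headers, who counted tags over them with HOMER, taking at most 3 tags per position. The deposited values used here are these raw counts. How reads were aligned, shifted or cleared of duplicates is not given in the sources used here. Annotation and distances are those of the deposited table.

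Counts were tested with edgeR 4.0.16 (quasi-likelihood F test, TMM scaling, filterByExpr with a minimum count of 10, Benjamini-Hochberg over all tested peaks, genotype as the only term, all 8 libraries), checked on counts with known changes. CPM use the same scaling. Classes were compared within libraries by exact sign-flip tests and genotypes by exact permutation tests, two-sided, using all autosomal promoter peaks, since none carries a CpG island annotation. No pair of libraries of the same genotype matched within sampling noise (chi-square per degree of freedom at least 1.19). Peaks were named by rule: those that passed, the 8 smallest p-values in each direction, the 2 highest levels among intronic and among intergenic peaks, the highest level in each gene set, and the 3 genes with the most peaks, ties included. The peaks, gene sets and rules were chosen with earlier results of these data known. Alternatives were DESeq2 1.42.0, other filters and scalings, a replicate block and leaving out libraries.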

Additional observations from a re-analysis of the deposited data

Results flagged for a closer look

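In 3 of 54 groups of 4 libraries checked, 1 library lay far from the other 3, and chance gives such a gap in about 1 of 20 groups. At the Rn4.5s peak, wild-type replicate 4 held 38.2 CPM against 9.84 to 14.2 CPM in the other wild-type libraries. At the Zdhhc5 peak, knockout replicate 1 held 31.4 CPM against 19.1 to 20.7 CPM in the other knockout libraries. At the Ubxn2a peak, knockout replicate 1 held 9.65 CPM against 4.39 to 4.53 CPM. Knockout replicate 1 is a library with a low share of tags in peaks (6.68%), and the part of this in its values was not tested.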

How the results depend on the processing

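The share of tags in CpG island peaks, knockout minus wild type, was 0.0191 points with all tags as the denominator, and tags per 100 promoter tags differed by -0.167 without knockout replicates 1 and 2. Against other peaks, the log2 level ratio was 0.21 as tags per peak and 0.31 for peaks over 1 kb from a start (exact p = 0.00781 for both), -0.033 for tested peaks alone, -0.011 without peaks that hold a RefSeq start, and -0.019 to 0.025 with 1 library left out. The settings over 1 kb from a start and without a RefSeq start were chosen after seeing the data.

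Of 2 CpG island peaks called (1 higher, 1 lower), DESeq2 called 1 (0 higher, 24 at an unadjusted p under 0.05, where edgeR had 53). Scaling to all tags called 0 (0 higher, 0 lower, 3 at an unadjusted p under 0.05), and scaling over CpG island peaks alone called 2 higher, Sfi1 being added. The calls over all tested peaks moved too. They were 99 in the main fit, 65 with DESeq2, 19 with scaling to all tags and 97 with scaling over CpG island peaks alone. With 1 library left out, 1 to 2 were higher (Sfi1 added without knockout replicate 4) and 1 to 2 lower (Mir148a added without knockout replicate 1). Calls over all tested peaks then ran from 65 (without knockout replicate 3) to 123 (without knockout replicate 4). Without knockout replicates 1 and 2, 2 were lower, and 246 of all tested peaks were called. With a replicate block, 4 were called (2 higher, 2 lower), with Sfi1 (adjusted p = 0.00784) and Cyp2r1 (0.0429) added, and 140 of all peaks. Same-numbered libraries correlated at -0.0078, 0.096, -0.0083 and 0.147 and paired best in 2 of 4. With so few libraries, this cannot show whether the numbers pair them. Foxj2 ran from -0.070 to 0.083 with 1 library left out, and Sall1 was 0.043 with all tags. Of 345 alternatives for named peaks, 332 kept direction and side of the threshold. Most named peaks did not pass in the main fit, and not passing again counts as kept, so this number says little. The causes of the changes between settings were not tested. Knockout replicates 1 and 2, at a median of 8 or 9 tags per peak, limit what could be detected. With 1 library left out, the share's difference ran from -0.17 to -0.027, and its exact test cannot go below p = 0.0571, which it reached without wild-type replicate 1.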
